A study of Homo sapiens with 9 samples.

Results

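The comparison described here sets nascent RNA of STK19 knockout (KO) cells 16 h after ultraviolet irradiation against nascent RNA of the same line after mock treatment. Its members were the 8619 transcript identifiers listed in both KO library files, of 9805 listed in any of the series' 9 library files. The KO cells are RPE1, an hTERT-immortalised line from human retinal pigment epithelium, and carry an inducible Cas9 (iCas9), the p53/puro double knockout and a knockout of STK19; the sources used here do not say whether the KO line is 1 clone. The lines set beside it share iCas9 and the p53/puro double knockout: the rescue line is the same knockout with an STK19-TY transgene, and the WT line has intact STK19. All cells compared here therefore lack p53. Irradiated cells received 12 J/m2 of UV-C and were labelled with 2 mM bromouridine for 30 min. The sample characteristics put the start of that pulse at 15.5 h, while the protocol text can be read as a start at 16 h. Each of the 9 combinations of line (KO, rescue, WT) and condition (3 h, 16 h, mock) had 1 library, so KO at 16 h against mock has no replicate check and carries no p-value.

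BrU-seq reads out transcription while it happens: cells build bromouridine into the RNA they make during a short pulse, and an antibody then picks that RNA out for sequencing. UV-C forms lesions in DNA at which RNA polymerase II stalls, and transcription-coupled repair, in which CSB, CSA and UVSSA act on the stalled polymerase, removes lesions from transcribed strands. STK19 joins this repair complex, and cells without it recover transcription poorly after UV. Longer stretches of a gene carry more lesions, so signal lost with distance from the transcription start site (TSS) is the usual readout of blocked elongation, and many human promoters also fire in the opposite direction, which gives a short upstream peak.

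Values are coverage per 200-bp bin, scaled by the authors to a similar total in each library. A value is thus a share of each library's signal, and a change of total transcription is not measured. Values were whole multiples of 1 step per library, to within 0.02 of a step, and the step was 1.89 at 16 h, against 0.647 in mock, so the mock library was 2.92 times deeper. The smallest mean over 0 to 25 kb that 1 step gives was 0.0151 at 16 h and 0.00517 in mock. The files give identifiers but pair them with no gene names or positions, and 0 of 9805 matched the reference table used here. Genes, gene ends, the STK19 locus, sequences and markers of retinal pigment epithelium were therefore not analysed here. A stretch of signal was shared with another identifier by 4716 of the 8619 (54.7%), so identifiers are not independent of each other. A further 164 identifiers occurred only in the 16 h file and 569 only in the mock file, none of them with a mean of 1 or more.

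In the authors' averages over 308 genes of at least 100 kb, KO cells had more signal around the start 16 h after UV than in mock and less signal along the gene. The 1 kb upstream of the TSS averaged 11.01 at 16 h and 5.28 in mock, a ratio of 2.08. The first 1 kb averaged 18.8 at 16 h and 12.0 in mock, a ratio of 1.57. From 1 to 5 kb the ratio was 1.12, so the excess was largely gone within the first few kilobases. It was 0.83 from 5 to 25 kb, 0.69 from 25 to 50 kb, 0.49 from 50 to 75 kb and 0.42 from 75 to 100 kb. Of 20 windows of 5 kb, 19 were lower at 16 h than in mock, and the lowest ratio, 0.345, lay in the last window, from 95 kb. This count depended in part on scaling: with each averaged profile divided by its sum, 14 of the 20 were lower. The distance that held 50% of the signal from 0 to 100 kb was 18.2 kb at 16 h and 35.8 kb in mock.

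**Figure D1:**
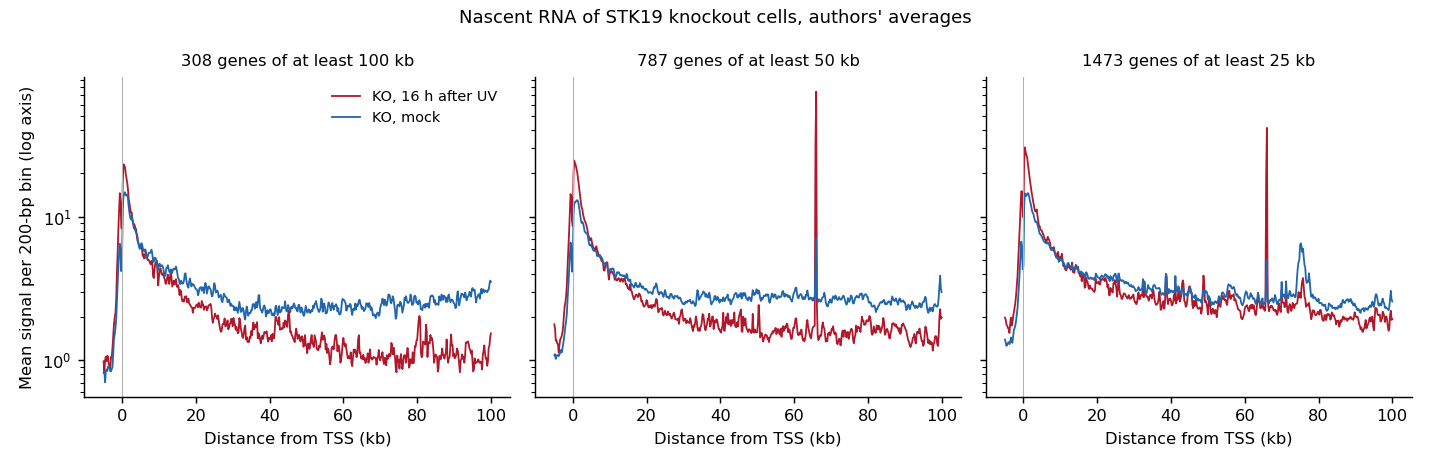
Authors' averaged nascent RNA signal per 200-bp bin (log axis) against distance from the TSS in kb, for KO cells 16 h after UV and mock, in 308, 787 and 1473 genes of at least 100, 50 and 25 kb; each line is 1 library. The 16 h line is above mock at the start and, in the left panel, below it in each 5-kb window beyond 5 kb, and the middle and right panels hold a narrow spike at 65.8 to 66 kb.

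The upstream peak of genes of at least 100 kb had its summit in the bin at -600 bp in both libraries, with 14.6 at 16 h and 6.48 in mock. The downstream summit lay at 400 bp at 16 h, with 23.2, and at 800 bp in mock, with 14.8, where mock was nearly flat, with 14.1 at 400 bp. In genes of 25 to 50 kb the downstream summit lay at 400 bp in both libraries. Bin by bin, in genes of at least 100 kb, the ratio was highest upstream, 2.25 at -600 bp, and first fell under 1 in the bin at 3000 bp. The upstream peak thus had a higher ratio than the downstream one in these long genes.

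The 3 tables are nested, and subtracting one from the next gave separate classes of 479 genes of 50 to 100 kb and 686 genes of 25 to 50 kb, with no negative bin. The excess at the start was present in each class: the ratio over the first 1 kb was 2.14 for genes of 50 to 100 kb and 2.18 for genes of 25 to 50 kb, and that over the upstream 1 kb was 2.18 and 2.42. The ratio along the gene differed between the classes. From 25 to 50 kb the ratio was 0.69 in genes of at least 100 kb, 0.67 in genes of 50 to 100 kb and 1.06 in genes of 25 to 50 kb, for which that stretch reaches past the gene's end. Nearer the start, the genes of 25 to 50 kb had 0.9495 from 15 to 20 kb, 0.977 from 20 to 25 kb and 0.875 from 25 to 30 kb.

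**Figure D2:**
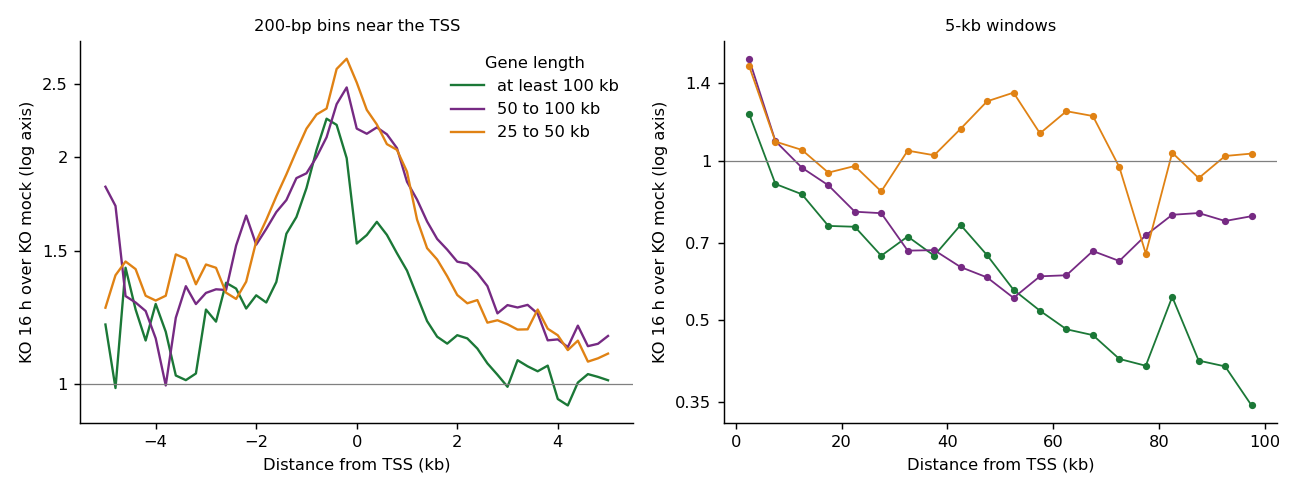
Ratio of KO 16 h over KO mock (log axis) in the authors' averages, in 200-bp bins near the TSS (left) and in 5-kb windows (right, without the 2 bins of the spike), for 3 separate classes of gene length; each point is 1 library over 1 library. All 3 classes peak just upstream of the TSS, and the class of at least 100 kb falls to 0.345 in the last window.

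The excess at the start was also seen identifier by identifier over the library files. Across all 8619 the first 1 kb averaged 9.63 at 16 h and 5.69 in mock, a ratio of 1.69, and of the 3559 identifiers with a mean of at least 1 there 77.8% were higher at 16 h. The upstream 1 kb averaged 4.68 at 16 h and 2.43 in mock, a ratio of 1.93, with 75.2% of 2832 higher. The ratio was 1.17 from 1 to 5 kb, 1.08 from 5 to 25 kb, 1.02 from 25 to 50 kb and 1.02 from 50 to 100 kb. In the first 1 kb, 3206 of the 8619 gained signal and 1700 lost it. Of those that gained, 325 held 50% of the summed gain, whereas 19 held 50% of the summed loss. These counts include identifiers that share a stretch of signal.

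Identifiers were grouped by their mean signal from 0 to 25 kb in the KO mock library, called the mock level. The class under 1 held 5068 identifiers, 1 to 4 held 1861, 4 to 20 held 1517 and over 20 held 173. The mean level was 0.219 at 16 h and 0.149 in mock in the class under 1, 3.25 and 2.26 in the class of 1 to 4, and 10.99 and 8.16 in the class of 4 to 20. In the class over 20 it was 42.0 at 16 h and 55.3 in mock, the one class with a lower mean at 16 h. That class held 23.4% of the summed level at 16 h and 35.6% in mock.

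In the window from 0 to 5 kb, class means gave ratios of 1.802, 1.802, 1.58 and 0.753 from the lowest to the highest class. Per identifier, 1162 of the 5068 in the class under 1 were higher at 16 h, 1250 were lower and 2656 were at 0 in both libraries. The median log2 change of that class was 0. Over 5 kb, 1 step gave a mean of 0.0755 at 16 h and 0.0259 in mock, and the part of depth in these counts was not tested. From 0 to 5 kb, 1209 were higher and 602 lower in the class of 1 to 4. The counts were 1077 and 427 in the class of 4 to 20, and 86 and 86 in the class over 20. From 20 to 25 kb the ratios of class means were 1.206, 1.216, 1.205 and 0.874. Beyond 25 kb the ratios over 15 windows ran from 0.986 to 1.13 in the class of 1 to 4 and from 0.938 to 1.09 in the class of 4 to 20. The class under 1 ranged from 0.969 to 1.32 and was at 1.18 or more in each window from 25 to 45 kb. Over all identifiers, the ratio of means from 95 to 100 kb was 0.9796. Those that differed there were lower at 16 h in 61.0% of cases, with 482 over 2-fold higher and 933 over 2-fold lower. The mock library was 2.92 times deeper, and the part of depth in this share and these counts was not tested either. The class over 20 was under 1 in all 20 windows, the lowest being 0.588 from 55 kb. Far windows hold neighbouring transcription too: in the class under 1 the mock mean was 0.220 from 0 to 5 kb and 1.48 from 95 to 100 kb.

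**Figure D3:**
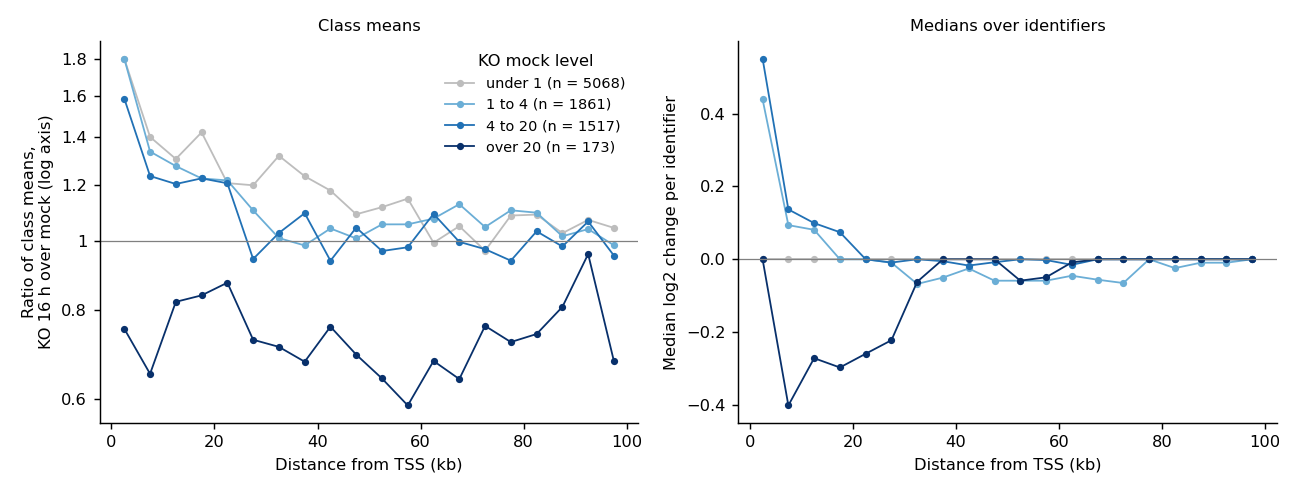
KO 16 h against mock in 5-kb windows by distance from the TSS, as the ratio of class means (left, log axis) and the median log2 change per identifier with a pseudocount of 0.5 (right), for 4 classes of KO mock level with 1 library a side. In the left panel the 3 lower classes are highest in the first window, and the class over 20 is under 1 in all 20 windows.

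The size of the deficit in the class over 20 depended on its highest members. With the 17 highest left out, the ratio of means from 0 to 25 kb was 0.966, against 0.760 with all, and 92 of 156 were lower at 16 h. From 0 to 5 kb it was 0.940 with the 5 highest left out and 1.06 with the 17 highest left out, while the median log2 change from 20 to 25 kb was -0.25 without those 17 and -0.26 with all. With classes set by the WT mock library, 215 identifiers were over 20. Their ratio of means stayed under 1, at 0.935 over the first 25 kb and 0.919 over the first 5 kb, but their median log2 change from 0 to 25 kb was 0.40, against -0.26 for the 173 chosen by KO mock, so the mean kept its direction and the median did not. The KO mock library sets the class and is also the denominator, and the part of this in the result was not tested. Between unirradiated libraries, WT mock over KO mock gave 0.807 from 0 to 25 kb and 0.783 from 0 to 5 kb in the same 173 identifiers. Rescue mock over KO mock gave 0.995 from 0 to 25 kb, 0.963 from 0 to 5 kb and 1.09 from 20 to 25 kb, and from 0 to 5 kb its other classes were lower still, at 0.912, 0.889 and 0.945.

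Levels from 0 to 25 kb changed in both directions. Among the 3581 identifiers whose mean level reached 1, 751 (21%) were over 2-fold higher at 16 h and 377 (10.5%) were over 2-fold lower, on the log2(value + 0.1) scale, and the median log2 change was 0.40. The balance rests on the authors' scaling: centred on that median, 339 were over 2-fold higher and 587 over 2-fold lower, an excess of lower in place of higher. The filter uses the mean of the libraries compared, so 175 of the 3581, with a mock level under 1, passed only through their 16 h value. Of these, 121 were over 2-fold higher and 0 over 2-fold lower, a direction that the filter fixed. Identifiers that passed only through their mock value were not counted. In the class over 20, 19 of 173 were over 2-fold higher and 50 were over 2-fold lower. Between unirradiated libraries the same count gave 8 higher and 14 lower of 3499 for rescue mock over KO mock, and 239 higher and 225 lower of 3580 for WT mock over KO mock. Depth differs between these libraries, and its part in the counts was not tested.

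Among 1917 identifiers whose level averaged at least 4 over both KO libraries, counting 1 for each shared stretch of signal when naming them, the highest fold change was that of uc002oue.4, with 20.7 at 16 h and 0.895 in mock, a log2 change of 4.39. Its signal lay mainly from 1 to 5 kb, with 116 at 16 h and 5.01 in mock. It was also higher after UV in the rescue line, with 8.22 at 16 h and 0.588 in mock, and was 0.896 at 16 h and 0.476 in mock in WT. The next, uc003nll.3, had 14.4 at 16 h and 0.704 in mock, a log2 change of 4.18. Its first 5 kb were at 0 in both KO libraries and its signal lay from 5 to 25 kb, so it need not belong to the transcript that starts there. It had 6.50 at 16 h and 0.196 in mock in the rescue line, and 3.87 at 16 h and 3.14 in mock in WT.

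The lowest was uc059mjy.1, with 0.558 at 16 h and 12.3 in mock, a log2 change of -4.23. It had 1.94 at 16 h and 11.6 in mock in the rescue line, and 0.812 at 16 h and 8.17 in mock in WT, so it was lower after UV in all 3 lines. The next lowest, uc001jrg.4, had 0.740 at 16 h and 10.6 in mock, a log2 change of -3.68. Its first 1 kb had 6.79 at 16 h and 53.9 in mock. It had 1.82 at 16 h and 11.5 in mock in the rescue line, and 0.161 at 16 h and 1.94 in mock in WT, so it too was lower in all 3 lines. The risen identifiers named above had a level under 4 in KO mock, and the fallen ones had a level under 4 in KO at 16 h. Each thus passed the filter only through the library in which it was high. No gene name or role can be given to these identifiers from the files.

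The balance between the first 1 kb and the next 4 kb was compared in the 3244 identifiers whose mean reached 1 in each of the regions. The median log2 ratio of first over next was 0.42 at 16 h and 0.04 in mock, and the median change was 0.43. The ratio was higher at 16 h in 73.7% (95% Wilson interval 72.2% to 75.2%, which covers counting of identifiers only). It was over 2-fold higher in 660 identifiers (20.3%) and over 2-fold lower in 124 (3.82%). Both regions gained signal in 2043 identifiers, both lost it in 537, the first gained while the next lost in 511, and the reverse held in 153.

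By mock level class, the share with a higher ratio was 62.8%, 71.6%, 77.1% and 81.1% from the lowest to the highest class. In the class over 20 the median log2 ratio was 0.06 at 16 h and -0.39 in mock, so the balance moved toward the start there too, although the class mean level was lower at 16 h. Unirradiated libraries differed in the same direction: against KO mock, the ratio was higher in 71.6% of 3151 identifiers in WT mock, with a median change of 0.31, and in 59.3% of 3100 in rescue mock, with a median change of 0.13. KO mock thus had the lower ratio in most identifiers against each of these mock libraries, and the KO change is read against that spread between unirradiated libraries, which no replicate resolves.

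**Figure D4:**
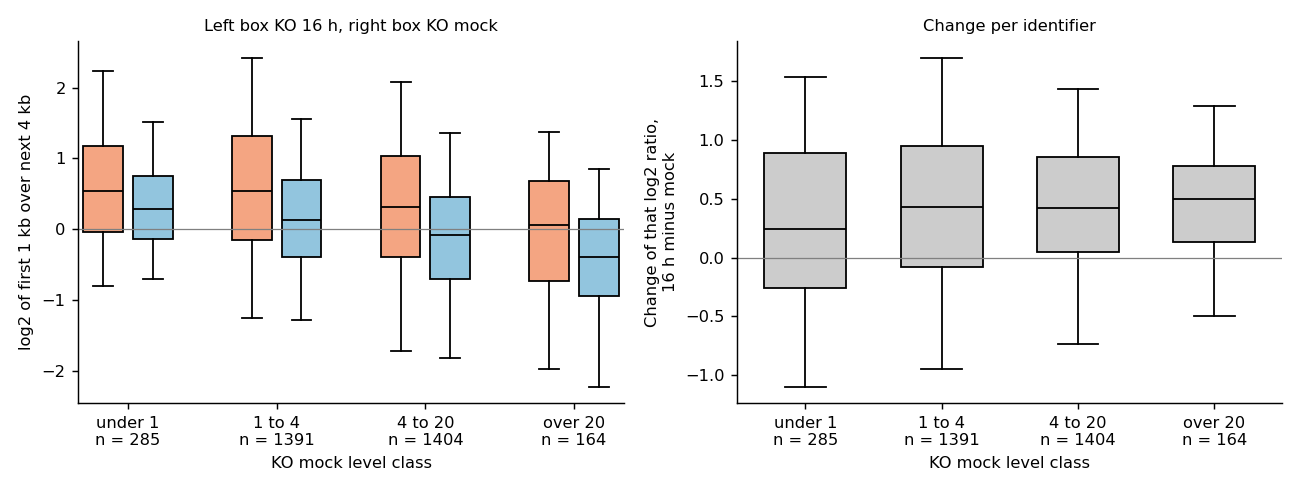
Log2 ratio of the first 1 kb over the next 4 kb in KO 16 h and KO mock (left) and its change per identifier, 16 h minus mock (right), by KO mock level class with the number of identifiers under each; boxes span the quartiles with the median as a line, and whiskers run from percentile 5 to percentile 95. The 16 h box has the higher median in every class.

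Single spans were followed in 201 identifiers with signal along the whole 100 kb, chosen on the WT mock library alone so that no KO value entered the choice; this choice was made after seeing the data. From 0 to 5 kb they averaged 17.4 at 16 h and 12.6 in mock, a ratio of 1.39, and 139 of 201 were higher at 16 h. From 20 to 25 kb the ratio was 0.741 and 126 were lower. From 50 to 55 kb it was 0.702 with 154 lower, and from 95 to 100 kb it was 0.665 with 146 lower, with 5.14 at 16 h and 7.73 in mock. The median log2 change was 0.49 in the first window and -0.82 in the last.

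The distance that held 50% of a span's signal had a median of 30.8 kb in KO at 16 h and 46.2 kb in KO mock, and was shorter at 16 h in 152 spans and longer in 46. The rescue line had 39.4 kb at 16 h and 46.8 kb in mock, with 137 shorter and 62 longer. WT had 41.0 kb at 16 h and 46.0 kb in mock, with 118 shorter and 80 longer. The 3 mock medians lay within 0.8 kb of each other, and the median change per span was -13.2 kb in KO, -6.2 kb in rescue and -2.6 kb in WT. The spans were chosen on WT mock, which is the baseline of the WT change but not of the KO and rescue changes. The part of this choice in the WT value was not tested, nor was a difference between the lines in this distance.

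**Figure D5:**
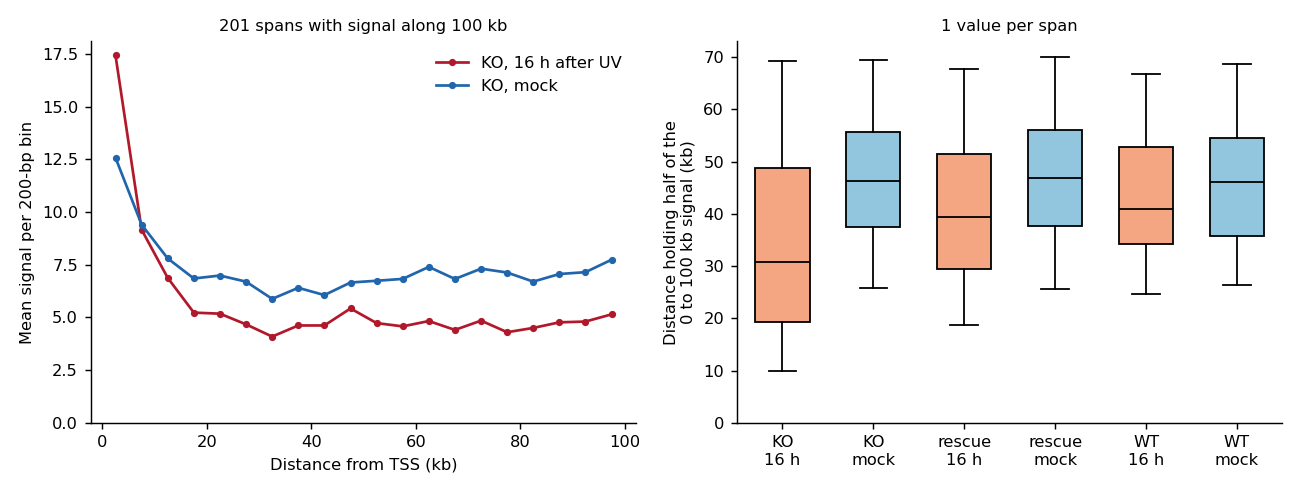
In 201 spans with signal along 100 kb, the mean signal per 200-bp bin in 5-kb windows for KO 16 h and KO mock (left), and the distance from the TSS in kb that holds 50% of each span's 0 to 100 kb signal in 6 libraries (right); boxes span the quartiles with the median as a line, and whiskers run from percentile 5 to percentile 95. The KO 16 h box has the lowest median, 30.8 kb.

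Whether the change of KO at 16 h differed from that of rescue and WT was tested per identifier with limma across all 9 libraries. The fit had 2 residual degrees of freedom, and these came only from how rescue and WT differed in their changes after UV. With 1 library for each line and condition, its p-values therefore do not measure variation between replicate libraries. For 7 measures (the upstream 1 kb, the first 1 kb, the next 4 kb, 5 to 25 kb, 25 to 50 kb, 50 to 100 kb, and first over next) no identifier passed an adjusted p of 0.05 (0%). In that order, 71 of 2682 (2.65%), 295 of 3501 (8.43%), 102 of 3499 (2.92%) and 396 of 3351 (11.8%) had an unadjusted p under 0.05. So did 378 of 3001 (12.6%), 529 of 3187 (16.6%) and 492 of 3262 (15.1%). The shares for the upstream 1 kb and the next 4 kb were below what this threshold gives with no difference. For the upstream 1 kb, the first 1 kb, the next 4 kb and first over next, 0 calls carry little information, since simulated 4-fold changes were recovered in only 0, 3, 8 and 0 of 100. For 0 to 25 kb, 1 of 3602 passed (0.0278%), with limma's adjusted p = 0.0445, and 281 had an unadjusted p under 0.05. That identifier had 44.3 at 16 h and 7.13 in mock in KO, 10.5 at 16 h and 8.01 in mock in rescue, and 13.98 at 16 h and 19.95 in mock in WT. The call was made with a pseudocount of 1; with 0.1, the pseudocount used for levels above, none passed and the lowest adjusted p from limma was 0.0571.

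As a description of the same fits, the median KO change minus that of the other lines was 0.55 on the log2 scale in the upstream 1 kb, 0.79 in the first 1 kb, 0.03 in the next 4 kb, -0.34 from 5 to 25 kb, -0.32 from 25 to 50 kb and -0.17 from 50 to 100 kb. Among identifiers with a mean of at least 4 the far differences reversed, to 0.09 from 25 to 50 kb and 0.17 from 50 to 100 kb, while it was -0.20 from 5 to 25 kb. In the first 1 kb the median change was 0.82 in KO, 0.39 in rescue and -0.35 in WT. In the upstream 1 kb it was 0.78 in KO, 0.71 in rescue and -0.29 in WT, so KO and rescue lay close together there. For first over next it was 0.42 in KO, -0.22 in rescue and -0.32 in WT.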

How the data were processed

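The authors deposited signal, read here as coverage, with 1001 bins of 200 bp per identifier, per the file headers, and 3 tables of signal averaged over genes. The submitters' processing notes list GRCh38 and hg38 as builds and, without roles, the tools R 4.0.5, HOMER 4.8.2, STAR 2.7.7a, Trim Galore 0.6.5 and FastQC 0.11.9. The sources used here name neither strand use nor a spike-in, so antisense and overlapping transcription cannot be told apart from a gene's own. Coverage is not a read count, so no count model was fitted.

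Groups came from the sample titles. Regions were averaged per identifier in Python 3.11.15 (numpy 2.4.6, pandas 2.3.3), with pseudocounts of 0.1 for levels, 0.5 for windows and 1 for ratios and for limma 3.58.1 (R 4.3.3; line, condition and KO-by-time terms, trend, Benjamini-Hochberg adjustment). The limma design had fixed no pseudocount: 1 was run first, and 0.1 for 0 to 25 kb was tried after its 1 call had been seen. The fit assumes that KO libraries vary like the others. Tested on simulated data for 0 to 25 kb (3602 identifiers), it recovered 7 of 100 identifiers given a 2-fold change and 62 of 100 given a 4-fold change, and made 0 false calls; for the first 1 kb (3501 identifiers) it recovered 0 of 100 and 3 of 100, and made 2 false calls. At 4-fold it recovered 0 of 100 for the upstream 1 kb, 8 for the next 4 kb and 0 for first over next, with 0 false calls each. From 5 to 25, 25 to 50 and 50 to 100 kb it recovered 77, 71 and 95 of 100 at 4-fold and 11, 8 and 21 at 2-fold, with 5, 6 and 6 false calls. Named identifiers were the 2 highest and 2 lowest changes among mean levels of at least 4 over both KO libraries, 1 for each shared stretch. Members, classes and measures were chosen with earlier results of these data known. Intervals cover counting only.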

Additional observations from a re-analysis of the deposited data

Results flagged for a closer look

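In the authors' averages over genes of at least 100 kb, KO and WT moved oppositely from mock to 16 h in 6 stretches. There was 1 library for each line and condition, and these differences were not tested. In the other stretches measured, the KO and WT ratios lay on the same side of 1, with WT close to 1. From 75 to 100 kb the ratio of 16 h over mock was 0.423 in KO, 0.576 in rescue and 0.974 in WT. From 5 kb to 1 kb upstream it was 1.33 in KO, 1.51 in rescue and 1.002 in WT. The 16 h over mock ratio in the upstream 1 kb was 2.08 in KO, 1.57 in rescue and 0.725 in WT. In the first 1 kb it was 1.57 in KO, 0.937 in rescue and 0.679 in WT. From 1 to 5 kb it was 1.12 in KO, 1.12 in rescue and 0.973 in WT, where WT was again close to 1. Farther along, KO was below mock and WT above it: the ratio was 0.832 in KO, 0.963 in rescue and 1.597 in WT from 5 to 25 kb, 0.690 in KO, 0.819 in rescue and 1.87 in WT from 25 to 50 kb, and 0.491 in KO, 0.621 in rescue and 1.47 in WT from 50 to 75 kb. These directions depend in part on the authors' scaling. Summed over the whole averaged profile, 16 h over mock was 0.749 in KO, 0.818 in rescue and 1.34 in WT. With each profile divided by its sum, the ratios of these stretches were not computed, so opposite movement at equal sums was not tested. The mock baselines differed too: from 25 to 50 kb mock averaged 2.38 in KO, 2.47 in rescue and 1.82 in WT. In the library files, the median log2 change of the first 1 kb over the next 4 kb was 0.42 in KO, -0.22 in rescue and -0.32 in WT. Without UV this ratio was already higher than in KO mock in 71.6% of identifiers in WT mock and 59.3% in rescue mock. The median differences from KO mock were 0.31 and 0.13. For that measure limma called 0 of 3262 identifiers and 492 had an unadjusted p under 0.05, but it also recovered 0 of 100 simulated 4-fold changes, so the count of 0 does not bear on the difference.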

How the results depend on the processing

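Of 130 recomputed values over 21 results, 95 stayed within the counting interval or 1.5 times (for limma, in the number of calls, not in the median difference). A further 29 moved, 3 gave fewer limma calls, 1 gave more limma calls, and 2 reversed. Levels over 2-fold higher numbered 339 with the change centred on the median, 1147 with no filter and 455 with a mean of at least 4; those over 2-fold lower numbered 587, 851 and 156, so centring turned the balance. The median log2 change from 0 to 5 kb in the class of 1 to 4 (0.44) was 0.29 with a pseudocount of 2, 0.50 with one 4 times lower than the main one, 0.36 with equal sums and 0.36 with classes from the mean of both KO libraries. In the class of 4 to 20 (0.55) it was 0.48 with a pseudocount of 2, 0.47 with equal sums, 0.62 with WT mock classes and 0.70 with classes from the KO mean; in the class over 20 (0) it was 0.66 and 0.69 with those classes. From 20 to 25 kb, the class of 1 to 4 (0) gave -0.052 with classes from the KO mean, and the class of 4 to 20 (0) gave -0.041 with equal sums, 0.064 with WT mock classes, 0.14 with classes from the KO mean and -0.046 with 1 identifier for each shared stretch. The class over 20 (-0.26) reversed to 0.17 with WT mock classes and 0.21 with classes from the KO mean; the cause was not tested. The share with a higher start-proximal ratio (73.7%) was 79.6% at a mean of at least 4, 68.5% at 0.25, 70.5% for the first 600 bases and 76.2% for 2 kb over 3 kb. Its median (0.43) was 0.32 with a pseudocount of 4, 0.47 with 0.25, and 0.46 and 0.35 at a mean of at least 4 and 0.25. For 0 to 25 kb, limma called 3 identifiers with a pseudocount 4 times higher, 0 with median scaling, 0 with mock and 16 h libraries only and 0 with a pseudocount of 0.1, the last tried after the 1 call had been seen. With a mean of at least 4, the median limma difference turned to 0.09 from 25 to 50 kb and 0.17 from 50 to 100 kb. Over all measures, 38 of 41 limma alternatives called 0, with 26 (of 1364 tested) to 635 (of 3262 tested) at an unadjusted p under 0.05. No paired analysis was possible because each group had 1 library.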

Other observations

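The averages over genes of at least 50 kb and of at least 25 kb held a narrow spike in the bins at 65.8 and 66 kb. In the bin at 66 kb it reached 74.3 in KO at 16 h and 7.07 in KO mock over genes of at least 50 kb, and 41.5 in KO at 16 h and 5.03 in KO mock over genes of at least 25 kb. The spike was not particular to KO. Over genes of at least 50 kb this bin held 48.9 in WT at 16 h and 8.85 in WT mock. In rescue it held 19.6 at 16 h and 10.6 in mock. Multiplied by the number of genes, the excess over the neighbouring bins in KO at 16 h was 57239 and 57725 in those tables, so the same summed signal stood in both. It was absent from genes of at least 100 kb, with 0.959 in KO at 16 h and 2.31 in KO mock. Without these 2 bins, which were left out after seeing the data, the distance that held 50% of the signal over genes of at least 50 kb was 22.4 kb in KO at 16 h and 38.8 kb in KO mock, against 27.0 kb and 39.2 kb with them.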
